A study of Mus musculus with 12 samples.

Results

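The change in kidney gene expression after nephrotoxic serum that mice with and without Aim2 had in common was measured from all 12 samples of the series, 6 after serum (NTS) and 6 controls. Members were chosen by treatment label: NTS samples were set against controls of the same genotype, and the changes of the 2 genotypes were averaged. The panel held 770 genes, 750 endogenous and 20 housekeeping, of which 677 passed a filter on low signal and were tested. The samples were kidney total RNA from female mice aged 8 to 10 weeks, in 4 groups of 3 mice. The WT NTS group were Aim2 wild-type F1 littermates given nephrotoxic serum, an antiserum against the glomerular basement membrane that induces glomerulonephritis, and sampled at day 9. The KO NTS group were Aim2 knockout mice, labelled B6, given the same treatment and sampled on the same day. The WT control and KO control groups were mice of these genotypes left untreated, and no day is given for them. No control serum is labelled, so the injection itself cannot be told apart from the action of the antibody. No allele or agent beyond these is named for any group, and the sources used here give no further strain background.

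Aim2 encodes a sensor of cytosolic DNA that assembles an inflammasome, and it was not analysed here. Antibody bound to the glomerular basement membrane engages complement and the Fc receptors of leukocytes. Chemokines then draw monocytes and neutrophils into the kidney, where macrophages and dendritic cells present antigen through MHC class II. Injured tubule cells are known to lose transport and growth-factor genes, to switch on cytokines and adhesion molecules, and to re-enter the cell cycle during repair. In bulk tissue, fewer cells of a type and less RNA per cell cannot be told apart.

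Serum moved a large share of the panel. A gene was called on the averaged change when its limma p-value, Benjamini-Hochberg adjusted over the 677 tested genes, was under 0.05. By this rule 318 genes were called, 47.0% of those tested, and percentages in brackets after counts of called genes are likewise of the 677. Of these, 249 were higher after serum (36.8%) and 69 were lower (10.2%). The called genes with at least a 2-fold change numbered 137, 127 higher and 10 lower (1.48%). A stricter rule asked for the change in each genotype separately, taking the larger of the WT and KO p-values where both changes had the same sign. It called 30 genes (4.43%), 26 higher (3.84%) and 4 lower (0.591%). Between these rules lay the genes called on the average whose 3 NTS kidneys lay on the same side of the 3 controls in WT and again in KO. They numbered 103 (15.2%), 77 higher and 26 lower, and included all 30 genes called in each genotype. Without regard to genotype, all 6 NTS kidneys lay above all 6 controls in 49 genes (7.24%) and below them in 22 (3.25%).

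The 2 genotypes did not contribute equally. The median change over all tested genes, on the log2(signal + 1) scale used throughout for changes, was 0.08 in WT and 0.42 in KO. Tested within a genotype, 54 genes were called in WT (7.98%) and 326 in KO (48.2%). The change was of the same sign in both genotypes for 489 genes (72.2%). Across the 677 genes the WT and KO changes, which share no samples, had a Pearson r of 0.661 and a Spearman rho of 0.626, where genes are not independent replicates. The test of the difference between the 2 changes called 70 genes (10.3%). Genes called both by it and on the average numbered 61 (9.01% of all tested). Among the 30 genes called in each genotype it called 3 of 30 (0.443% of all tested), namely Ccl20, Lif and Egf. This test called no gene by limma in 9 of the 12 fits that left out 1 sample, where 154 to 183 genes had an unadjusted p under 0.05, and 9 genes under positive control scaling. Of the 318 averaged calls, 12 (1.77% of all tested) had WT and KO changes of opposite sign and 35 (5.17% of all tested) were called in neither genotype alone, so an averaged call alone does not show a change common to both genotypes.

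**Figure D1:**
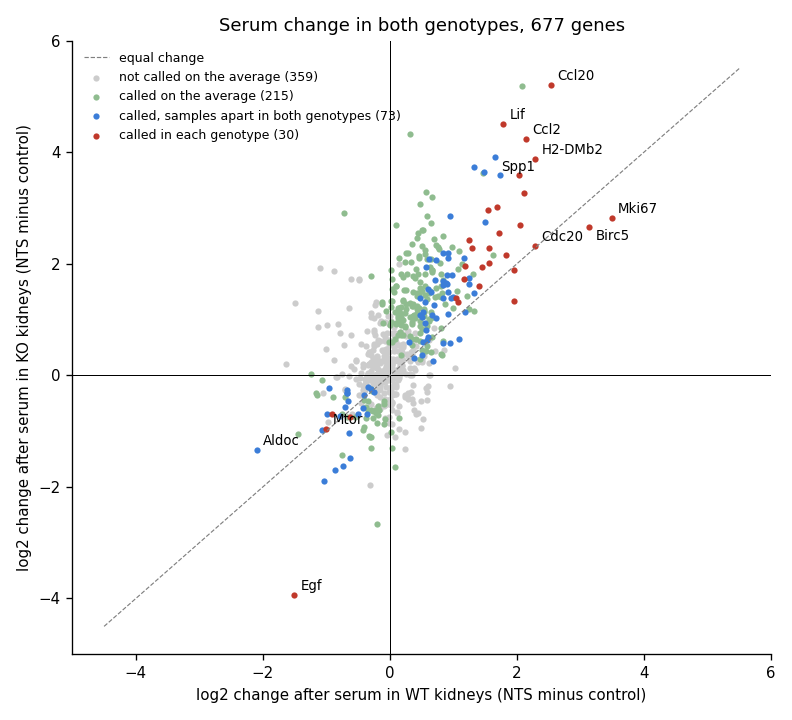
Each point is 1 of 677 genes, with its log2 change after serum in WT on the horizontal axis and in KO on the vertical axis; the dashed line marks equal change. The 30 genes called in each genotype are red, and Mki67 and Birc5 lie near the line while Ccl20, Lif and Egf lie nearer the KO axis.

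Samples of the WT NTS group stood apart from each other. On the first principal component, which held 67.5% of the variance, the 6 controls lay between 9.7 and 13.9 and the 3 KO NTS kidneys between -23.7 and -18.0. WT NTS 1 lay at -11.3 and correlated best with KO NTS 2, with r of 0.974 across genes. WT NTS 2 and 3 lay at 5.0 and 4.5, and WT NTS 3 correlated best with KO control 3 (r = 0.983). Summed endogenous signal ran from 596307 to 1346839, with the 3 KO NTS kidneys highest. The lowest signal in a sample, a floor set at the mean of its negative controls, ran from 10.0 to 15.1 and was shared by 53 to 140 genes. Leaving out 1 sample at a time, the genes called in each genotype numbered from 7, without WT control 3, to 43, without WT NTS 3. They numbered 13 without WT NTS 1 and 17 and 14 without KO NTS 1 and 3. Without WT control 1 there were 16, and without KO control 1, 2 and 3 there were 12, 13 and 13. In every one of these 12 fits 6 genes were called in each genotype (0.886%), among them Ccl20, Birc5, Ccl9, Rrm2 and Brca1, and 13 genes (1.92%) were so called in at least 9 of the 12. On the averaged change, 260 genes (38.4%) were called in all 12 fits, among them all 30 genes called in each genotype.

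The deposited values had been scaled on the housekeeping genes, and the split of calls into higher and lower depended on that scaling. With each sample centred on its median, the median averaged change over all tested genes went from 0.25 to -0.27, and the calls became 130 higher and 271 lower. Quantile normalization gave a median of -0.15, with 156 higher and 216 lower. Scaling on the positive controls gave 0.40, with 255 higher and 18 lower, and scaling on 4 common reference genes gave 0.41, with 316 higher and 35 lower. In the positive control scaling each sample was also divided by its estimated signal per count, 0.955 to 1.09, so it is not a plain scaling on those controls. The 4 reference genes were Tbp, Polr2a, Abcf1 and Sdha. Of these, Sdha was itself called lower after serum under all 5 scalings, at -0.70 as deposited. Small changes of the whole panel therefore have no settled direction here. Called in the same direction under all 5 scalings were 138 genes (20.4%), 120 higher and 18 lower, and those called in each genotype under all 5 numbered 19 (2.81%).

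**Figure D2:**
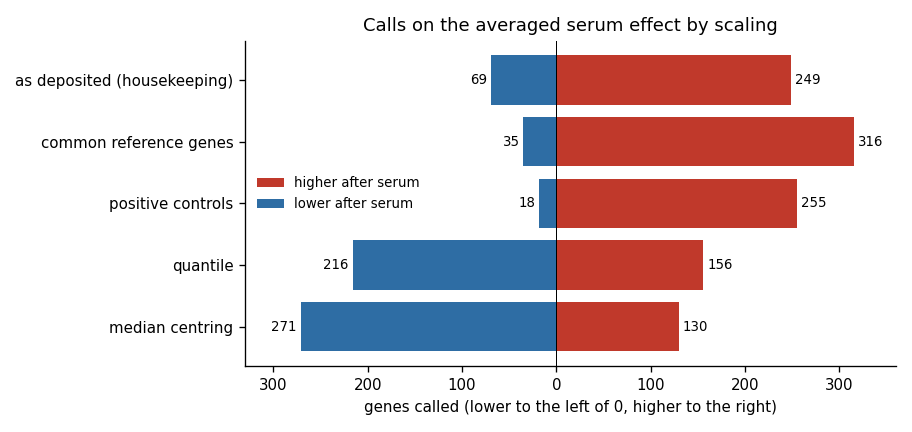
Bars give the number of genes called on the averaged change, lower to the left of 0 and higher to the right, under the deposited scaling and 4 others. The deposited scaling gave 249 higher and 69 lower calls, and median centring gave 130 and 271.

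Promoters of 5 genes called in each genotype are shown because cell division genes and chemokines made up 15 of these 30 genes. They are RefSeq sequences of build GRCm38.p6, read 5′ to 3′ on the gene's strand, each from a window before the annotated start. Capitals mark TTTGAA, the cell cycle genes homology region (CHR), in Mki67 and Cdc20, the NF-kB motif in Ccl20, first TTTGAA and then the NF-kB motif in Ccl9, and in Cxcl10 first the interferon-stimulated response element (ISRE) and then 2 NF-kB motifs.
Mki67, chr7:135716460-135716559, minus strand: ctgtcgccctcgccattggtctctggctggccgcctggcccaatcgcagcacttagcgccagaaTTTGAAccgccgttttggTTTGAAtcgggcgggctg
Cdc20, chr4:118437344-118437443, minus strand: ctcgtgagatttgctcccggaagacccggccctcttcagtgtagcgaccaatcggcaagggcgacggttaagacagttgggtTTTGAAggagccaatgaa
Ccl20, chr1:83116646-83116745, plus strand: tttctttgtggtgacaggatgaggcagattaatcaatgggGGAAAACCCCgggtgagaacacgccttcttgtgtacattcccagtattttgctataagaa
Ccl9, chr11:83578637-83578736, minus strand: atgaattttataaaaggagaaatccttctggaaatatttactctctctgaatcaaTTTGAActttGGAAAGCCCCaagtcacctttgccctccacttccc
Cxcl10, chr5:92348970-92349109, minus strand: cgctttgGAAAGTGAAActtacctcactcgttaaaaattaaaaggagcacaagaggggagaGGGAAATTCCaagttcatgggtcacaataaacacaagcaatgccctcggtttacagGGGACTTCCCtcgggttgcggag

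The CHR is an element through which cell cycle genes are repressed in resting cells and activated in dividing cells, NF-kB carries signals of TNF, interleukin-1 and Toll-like receptors, and the ISRE binds factors activated by interferons. The motifs were searched on both strands of the 250 bases before the annotated start, and no marked motifs overlapped. CHR letters were present in 6 of the 17 cell division genes that rose and had a promoter in the table (35.3%), against 15.5% of 497 matched tested genes, 18.3% of the 27025 genes in the promoter table and 16% of its 32851 promoters. They were also present in 2 of 10 matched chemokines that rose, Ccl9 and Ccl17. The NF-kB motif was present in 5 of 10 matched chemokines that rose, against 11.1% of matched tested genes, 4.46% of all genes and 3.9% of all promoters. The ISRE was present in 5 of 19 matched interferon-stimulated genes that rose (26.3%), against 8.65% of matched tested genes, 3.46% of all genes and 2.98% of all promoters. These are counts of letters in a window, with no test.

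Most cell division genes rose on the averaged change. Of 22 tested, 18 rose (81.8%, against 36.8% over all tested genes), 1 fell (4.55%, against 10.2%) and 3 did not pass the test. The median change was 1.47 against 0.25 over all tested genes. It was 1.16 in WT, against 0.08, and 1.73 in KO, against 0.42. Of the 22, 3 passed the filter only through NTS kidneys. Within this list 10 were called in each genotype, and 15 rose and 3 fell under median centring. Mki67, the proliferation antigen of cycling cells, had signals of 45.9, 199.6 and 60.7 in the WT controls, 1668, 884 and 553 in the WT NTS kidneys, 164, 192 and 331 in the KO controls and 1787, 1117 and 1862 in the KO NTS kidneys. Every NTS kidney lay above every control, with WT NTS 3 the lowest of the NTS kidneys. The averaged change was 3.15 ± 0.37 (SE), adjusted p = 7.83e-05, from 3.49 ± 0.52 in WT and 2.82 ± 0.52 in KO. Birc5 encodes survivin, a subunit of the chromosomal passenger complex. Its signals were 35.3, 87.8 and 33.5 in the WT controls, 587, 491 and 262 in the WT NTS kidneys, 87.6, 87.7 and 123 in the KO controls and 643, 586 and 654 in the KO NTS kidneys. The groups did not overlap, and the averaged change was 2.90 ± 0.26 (SE), adjusted p = 1.95e-05.

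Genes of the spindle and of cytokinesis followed. Cdc20, the activator of the anaphase-promoting complex, had signals of 19.1, 37.6 and 24.1 in the WT controls, 233, 136 and 68.9 in the WT NTS kidneys, 23, 35.7 and 47.8 in the KO controls and 177, 151 and 196 in the KO NTS kidneys. The 2 genotypes' changes were nearly equal, 2.28 ± 0.42 in WT and 2.32 ± 0.42 in KO. Anln, encoding the contractile-ring protein anillin, ran from 17.5 to 54.1 in the controls and 82.4 to 325 after serum, an averaged change of 2.69 ± 0.31 (SE), adjusted p = 6.94e-05. Kif2c, a microtubule-depolymerising kinesin, ran from 12.4 to 19.8 in the controls and 26.2 to 92.4 after serum, and all 3 WT controls were at the floor, so that its WT change is measured against background. The abscission protein Cep55 changed by 1.79, the kinase Melk by 1.79 and the centromere protein Cenpf by 1.65 on average. Each of the 3 was called in each genotype. That call held in 5, 4 and 3 of the 5 scalings for Cep55, Melk and Cenpf. It held in 5, 3 and 5 of the 12 fits that left out 1 sample.

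Among genes of nucleotide supply and DNA repair, Rrm2, the subunit of ribonucleotide reductase that is made in S phase, had signals of 159, 186 and 115 in the WT controls, 671, 701 and 427 in the WT NTS kidneys, 163, 253 and 248 in the KO controls and 803, 949 and 696 in the KO NTS kidneys. No NTS kidney overlapped the controls, and the change was 1.95 ± 0.26 in WT and 1.89 ± 0.26 in KO. Of 21 DNA damage, repair and cell cycle inhibitor genes 7 rose (33.3% of the list, against 36.8% over all tested genes) and none fell. Their median change was 0.17, 1 of the 21 passed the filter only through NTS kidneys, and under median centring 3 rose and 9 fell. Brca1, which acts in homologous recombination, changed by 1.70 ± 0.16 (SE), adjusted p = 1.97e-05, and 2 of its 3 WT controls were at the floor. The ubiquitin-conjugating enzyme Ube2t, of the Fanconi anaemia pathway, changed by 1.44 and the DNA damage histone H2afx by 0.69. Trp53, the damage-responsive transcription factor, was called on the average, with changes of 0.20 ± 0.22 in WT and 1.35 ± 0.22 in KO. Under median centring H2afx and Trp53 stood at 0.17 and 0.26 and were not called.

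**Figure D3:**
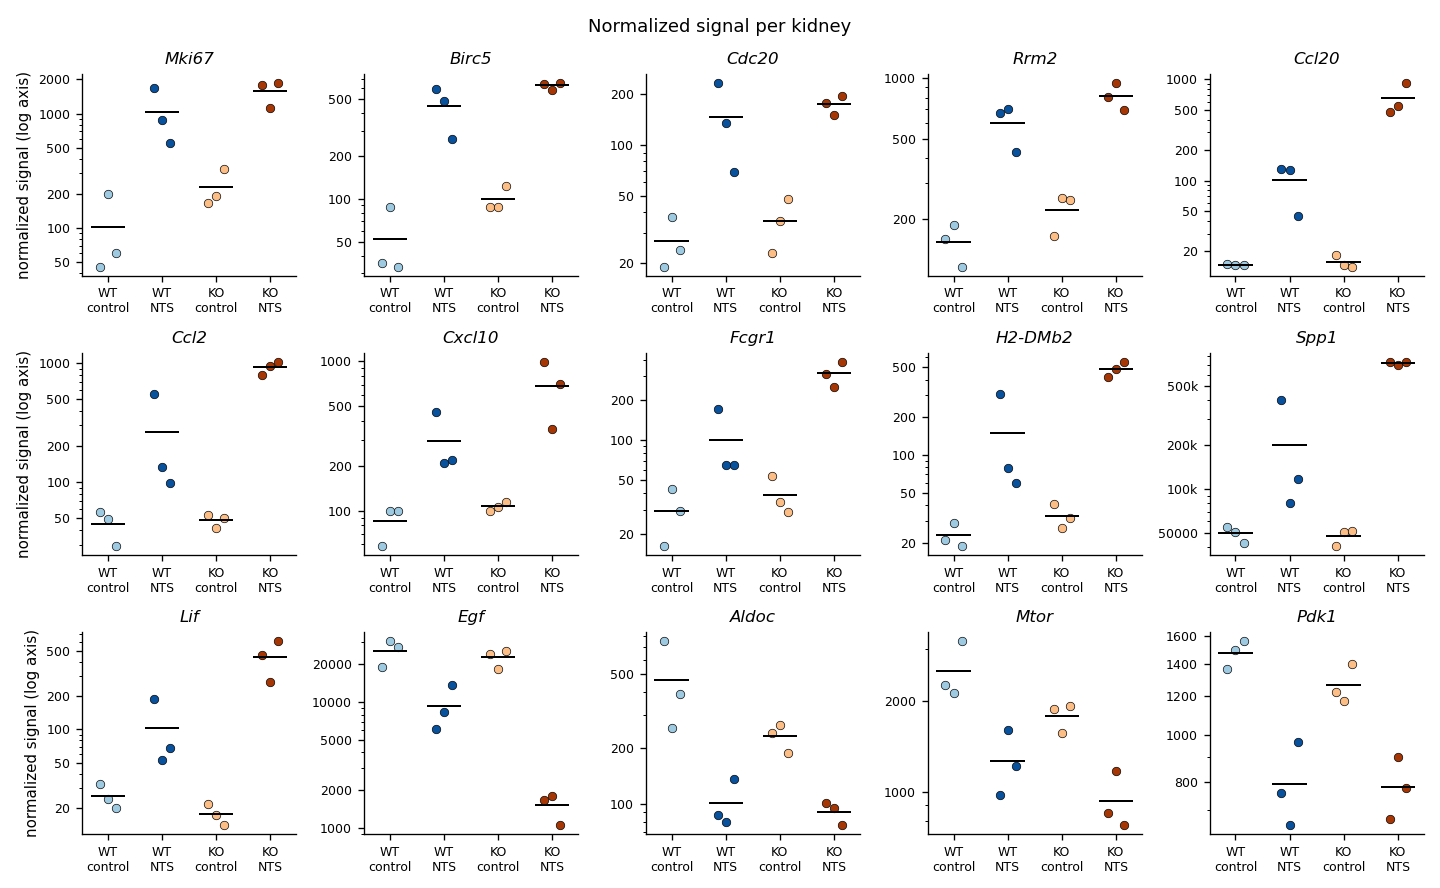
Normalized signal of 15 genes in each kidney, on log axes; points are the 3 mice of each group and bars are group means. The NTS kidneys lie above the controls for Mki67, Birc5, Cdc20, Rrm2, Ccl20 and Cxcl10 and below them for Egf, Aldoc and Pdk1, and WT NTS 1 is the highest WT NTS kidney for Ccl2, Fcgr1, H2-DMb2, Spp1 and Lif.

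Chemokines of the CC class were among the largest changes. Of 18 tested 9 rose (50%, against 36.8% over all tested genes) and none fell, with a median of 0.62, and 4 were called in each genotype. Of the 18, 4 passed the filter only through NTS kidneys, and under median centring 8 rose and 5 fell. Ccl20, the ligand of Ccr6, had signals of 15.1, 14.7 and 14.7 in the WT controls, 129, 127 and 44.6 in the WT NTS kidneys, 18.6, 14.8 and 14.2 in the KO controls and 474, 545 and 923 in the KO NTS kidneys. Of the 6 controls 4 were at the floor, and the lowest NTS kidney was WT NTS 3. The averaged change was 3.87 ± 0.27 (SE), adjusted p = 4.64e-06, and the change was larger in KO by 2.68 ± 0.54 (adjusted p = 0.0351). Ccl2, which draws monocytes through Ccr2, had signals of 56.4, 49.2 and 29.3 in the WT controls, 555, 133 and 98.9 in the WT NTS kidneys, 53.6, 41.1 and 49.9 in the KO controls and 797, 939 and 1023 in the KO NTS kidneys. All NTS kidneys lay above all controls, and WT NTS 1 lay nearer to the KO NTS kidneys than to the other WT NTS kidneys. Its averaged change was 3.18 ± 0.36 (SE), adjusted p = 6.6e-05.

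Ccl9, a mouse ligand of Ccr1, had signals of 59.2, 60.8 and 44 in the WT controls, 441, 165 and 154 in the WT NTS kidneys, 58, 56.3 and 54.1 in the KO controls and 773, 651 and 638 in the KO NTS kidneys. Its groups did not overlap, and the changes were 2.03 ± 0.33 in WT and 3.59 ± 0.33 in KO. Ccl5, a chemokine for T cells and monocytes, ran from 33.5 to 96.4 in the controls and 127 to 591 after serum, an averaged change of 2.37 ± 0.36 (SE), adjusted p = 0.000319. Among receptors, 3 of 7 tested rose (42.9%, against 36.8% over all tested genes) and none fell, with a median of 0.16 against 0.25, and none was called in each genotype; under median centring 3 rose and 2 fell. Those that rose included Ccr2 (1.89) and the fractalkine receptor Cx3cr1 (1.56). Of 14 CXC, C and CX3C chemokines 7 rose (50%, against 36.8% over all tested genes) and 1 fell (7.14%, against 10.2%), with a median of 0.54. Of the 14, 4 passed the filter only through NTS kidneys, and under median centring 4 rose and 4 fell. Cxcl10, an interferon-induced ligand of Cxcr3, had signals of 58.3, 99.3 and 99.5 in the WT controls, 457, 209 and 219 in the WT NTS kidneys, 99.6, 106 and 115 in the KO controls and 992, 355 and 709.6 in the KO NTS kidneys. Its groups did not overlap and the averaged change was 2.13 ± 0.27 (SE), adjusted p = 0.000126. The neutrophil attractants Cxcl1 and Cxcl5 changed by 3.63 and 2.53 on average. Cxcl1 reached 115 in WT control 1, above 2 of the 3 WT NTS kidneys, and its 5 other controls were at or near the floor. Cxcl12, the ligand of Cxcr4 that retains leukocytes in tissue, fell by 1.28 on average, with signals of 1239 to 2235 in the controls and 395 to 1142 after serum.

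Receptors for antibody and the first complement component rose together. Of 11 Fc receptor and complement genes 10 rose (90.9%, against 36.8% over all tested genes) and none fell. Their median was 1.27 against 0.25, and 9 rose under median centring. Fcgr1, the high-affinity IgG receptor of monocytes and macrophages, had signals of 16.2, 43.4 and 29.3 in the WT controls, 172, 65.7 and 65 in the WT NTS kidneys, 53.6, 34.6 and 29.1 in the KO controls and 315, 252 and 384 in the KO NTS kidneys. WT NTS 1 was the highest of the WT NTS kidneys, and every NTS kidney lay above every control. Its averaged change was 2.34 ± 0.30 (SE), adjusted p = 0.000131. The activating receptor Fcgr4 changed by 1.07 ± 0.24 in WT and 1.31 ± 0.24 in KO, and these 2 receptors were called in each genotype. For Fcgr1 that call held in 4 of the 5 scalings and 3 of the 12 fits that left out 1 sample. For Fcgr4 it held in 2 of the scalings and 4 of the fits. Fcgr3 changed by 1.39 on average. C1qa and C1qb, chains of the classical pathway's recognition molecule, changed by 1.27 ± 0.17 (SE), adjusted p = 0.000188 and by 1.39 ± 0.18 (SE), adjusted p = 0.000152. The inhibitory receptor Fcgr2b, chosen here after its values were seen, did not pass the test, at 0.18 (adjusted p = 0.446).

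MHC class II genes moved with them. Of 12 presentation genes 11 rose (91.7%, against 36.8% over all tested genes) and none fell. Their median was 1.34 against 0.25, and under median centring 9 rose and 1 fell. H2-DMb2, a chain of the chaperone that loads peptides, had signals of 21, 28.9 and 18.9 in the WT controls, 308, 78.2 and 60.1 in the WT NTS kidneys, 40.5, 26 and 31.2 in the KO controls and 423, 484 and 552 in the KO NTS kidneys. All NTS kidneys lay above all controls, and the averaged change was 3.08 ± 0.34 (SE), adjusted p = 6.6e-05. Ctss, the protease that trims the invariant chain, changed by 1.18 ± 0.26 in WT and 1.96 ± 0.26 in KO and was also called in each genotype. H2-DMa changed by 1.35 and the class II chain gene H2-Ab1 by 1.41. In H2-Ab1 the lowest WT NTS kidney, at 4604, lay below KO control 1 at 4991, although it lay above all WT controls.

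Macrophage and monocyte markers rose in 16 of 23 tested (69.6%, against 36.8% over all tested genes) and fell in 1, Nos2, with a median of 0.87. Of the 23, 4 passed the filter only through NTS kidneys, and under median centring 12 rose and 3 fell. Csf1r, the receptor of Csf1, was not called, nor were Cd163, Marco, Trem1, Trem2 and Clec4e. Apart from Fcgr1 no marker of this list was called in each genotype. Cd68, a lysosomal glycoprotein of macrophages, ran from 73.3 to 159 in the controls and 146 to 875 after serum, with WT control 1 above 1 WT NTS kidney. Itgam, the CD11b integrin chain, changed by 0.59 ± 0.40 in WT and 2.85 ± 0.40 in KO. Itgax, the CD11c chain, changed by 1.08 ± 0.16 (SE), adjusted p = 0.000358. Summed over 10 defining macrophage markers the signal was 961 to 1110 in controls, 841 to 2031 in WT NTS and up to 4019 in KO NTS, so that WT NTS kidneys overlapped the controls. Its part in the changes of Fc receptor, class II and chemokine genes was not tested. Of 8 neutrophil markers 5 rose (62.5%, against 36.8% over all tested genes), among them S100a8 (1.08) and S100a9 (1.19). Through NTS kidneys alone 1 of the 8 passed the filter, and under median centring 2 neutrophil markers rose and 2 fell. S100a8 and S100a9 were not called under median centring, at 0.56 and 0.67, nor under quantile normalization, at 0.50 and 0.62. Summed over 6 defining neutrophil markers the signal was 108 to 198 in controls and 138 to 373 after serum, and the ranges overlapped.

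**Figure D4:**
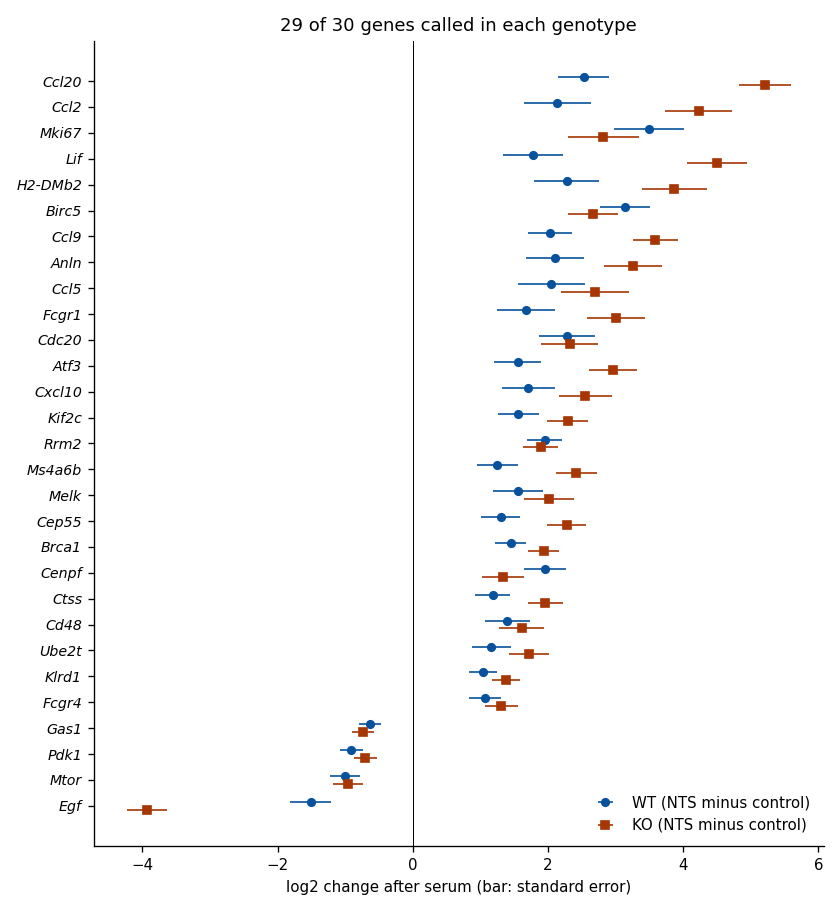
The log2 change after serum in WT (circles) and KO (squares) for 29 of the 30 genes called in each genotype, with bars of 1 standard error and genes ordered by their averaged change from Ccl20 (3.87) to Egf (-2.72). In 24 of the 30 the change was larger in KO, and Mki67, Birc5, Rrm2 and Cenpf are among those with the larger change in WT.

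Interferon-stimulated genes rose in 23 of 39 tested (59%, against 36.8% over all tested genes) and fell in 2 (5.13%, against 10.2%). Their median was 0.56, and 2 of the 39 passed the filter only through NTS kidneys, but under median centring 8 rose and 8 fell. Cxcl10 alone was called in each genotype. Oas2, a sensor of double-stranded RNA, changed by 1.51 ± 0.25 (SE), adjusted p = 0.000543, from 0.83 ± 0.35 in WT and 2.19 ± 0.35 in KO. Mx1, an antiviral GTPase, ran from 32.5 to 66 in the controls and 48 to 124 after serum, with changes of 0.91 ± 0.33 in WT and 1.10 ± 0.33 in KO, and under quantile normalization it stood at 0.36 and was not called. The interferon-gamma receptor chain Ifngr2 changed by 0.93. Of 17 MHC class I genes 11 rose (64.7%, against 36.8% over all tested genes) and 1 fell (5.88%, against 10.2%). Their median was 0.56, and under median centring 2 rose and 3 fell. Nlrc5, the activator of class I transcription, changed by 1.19 ± 0.36 in WT and 1.14 ± 0.36 in KO, and the immunoproteasome subunit Psmb8 by 1.08. B2m, the class I light chain, changed by 0.71, with WT NTS 2 and 3 within the WT control range, and under median centring it stood at 0.19 and was not called.

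Genes of DNA sensing, the inflammasome and the interleukin-1 family rose in 8 of 16 tested (50%, against 36.8% over all tested genes). They fell in 1 (6.25%, against 10.2%), with a median of 0.49, and 2 of the 16 passed the filter only through NTS kidneys. With median centring 5 rose and 4 fell. Il1rn, the antagonist of the interleukin-1 receptor, had signals of 17.2, 14.7 and 20.9 in the WT controls, 139, 29.2 and 31 in the WT NTS kidneys, 12.5, 14.8 and 14.2 in the KO controls and 212, 90.7 and 316 in the KO NTS kidneys. All 3 KO controls were at the floor, and the averaged change was 2.56 ± 0.39 (SE), adjusted p = 0.000373. The alarmin Il33 changed by 0.84 ± 0.23 in WT and 1.69 ± 0.23 in KO. Tmem173, encoding the adaptor STING, and Mb21d1, encoding the DNA sensor cGAS, changed by 1.41 and 1.00 on average. Of 46 NF-kB, TNF and Toll-like receptor genes 23 rose (50%, against 36.8% over all tested genes) and 1 fell (2.17%, against 10.2%). None was called in each genotype, and 3 of the 46 passed the filter only through NTS kidneys. With median centring 12 rose and 13 fell. Examples of those that rose were Tlr2 (1.69), the cell-death inhibitor Birc3 (1.36) and the NF-kB inhibitor Tnfaip3 (1.07). Of 19 apoptosis genes 7 rose (36.8%, against 36.8% over all tested genes) and 1 fell (5.26%, against 10.2%). Among those that rose was the death effector Bax (0.56 ± 0.10 (SE), adjusted p = 0.000755). Bax was not called under median centring, at 0.05 (adjusted p = 0.791), or under quantile normalization, at 0.22 (adjusted p = 0.118).

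Tubule injury and stress genes had a median of 1.59 against 0.25 over all tested genes. Of 16 tested, 14 rose (87.5%, against 36.8%) and none fell. Through NTS kidneys alone 4 of the 16 passed the filter, and under median centring 11 rose and 1 fell. Spp1, encoding osteopontin, a secreted phosphoprotein made by injured tubules and by macrophages, had the highest signal in all 12 samples. Its share of the summed endogenous signal was 6.56% to 9.06% in controls and 13.3% to 54.3% after serum. The means were 7.92% ± 1.11 (SD, n = 3) in WT controls and 23.9% ± 15.4 in WT NTS, and 7.73% ± 1.04 in KO controls and 53.4% ± 1.38 in KO NTS. The averaged difference was 30.8 percentage points (two-sided exact permutation test within genotypes, p = 0.005, the smallest that the 400 arrangements allow). WT NTS 1 held the highest WT share, 41.5%.

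Lif, which signals through the interleukin-6 family's shared receptor chain, had signals of 32.5, 24.1 and 19.9 in the WT controls, 186, 53.2 and 68.9 in the WT NTS kidneys, 21.9, 17.3 and 14.2 in the KO controls and 460.2, 261 and 608 in the KO NTS kidneys. All NTS kidneys lay above all controls, and the averaged change was 3.14 ± 0.31 (SE), adjusted p = 2.88e-05. Atf3, a transcription factor induced by cell stress, had signals of 63, 41.5 and 35.6 in the WT controls, 209, 90.7 and 130.0 in the WT NTS kidneys, 67.9, 50.9 and 38.5 in the KO controls and 567, 313 and 368 in the KO NTS kidneys. It was called in each genotype, with changes of 1.55 ± 0.35 in WT and 2.96 ± 0.35 in KO. Vcam1, an adhesion molecule for leukocytes, ran from 144 to 240.0 in the controls and 324 to 4249 after serum, an averaged change of 2.66 ± 0.36 (SE), adjusted p = 0.000181. Il34, a ligand of the Csf1 receptor made by tubule cells, changed by 2.54 on average. Areg, a ligand of the EGF receptor, was at the floor in all 6 controls and ran from 17.5 to 76.7 after serum. Mmp7, encoding matrilysin, was called on the average but changed by 0.32 ± 0.64 in WT and 4.32 ± 0.64 in KO, and WT control 1 at 73.5 lay above all WT NTS kidneys. Of 27 genes of the interleukin-6 family, other interleukins and JAK-STAT signalling 14 rose (51.9%, against 36.8% over all tested genes). In this list 3 fell (11.1%, against 10.2%), and 4 of the 27 passed the filter only through NTS kidneys. Stat3 stood at 0.95 on average, and under median centring 6 rose and 8 fell.

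Matrix, protease, integrin and TGF-beta genes rose in 20 of 39 tested (51.3%, against 36.8% over all tested genes). They fell in 1 (2.56%, against 10.2%), with a median of 0.55. Of the 39, 4 passed the filter only through NTS kidneys. None was called in each genotype, and under median centring 6 rose and 8 fell. The collagen cross-linking enzyme Loxl2 changed by 1.31 ± 0.46 in WT and 1.82 ± 0.46 in KO. Slc11a1, a metal transporter of phagosomes that belongs to the list of metabolic genes, changed by 1.91 ± 0.24 (SE), adjusted p = 0.000126. Of 34 growth factor, PI3K and MAPK genes 8 rose (23.5%, against 36.8% over all tested genes) and 3 fell (8.82%, against 10.2%). Their median was 0.00, 3 of the 34 passed the filter only through NTS kidneys, and under median centring 4 rose and 18 fell. The phosphatase Dusp5 was among those that rose, at 1.52.

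**Figure D5:**
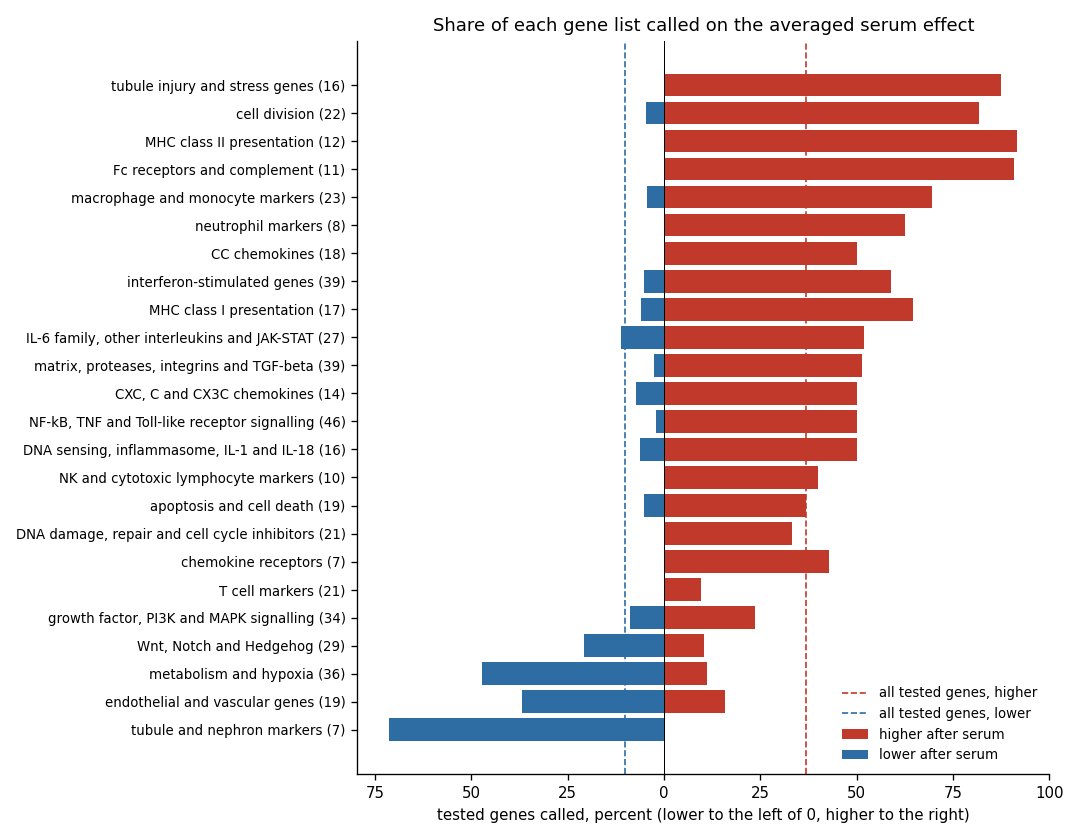
Bars give the percent of tested genes in each list called on the averaged change, lower to the left of 0 and higher to the right, with the number tested in brackets; dashed lines mark 36.8% higher and 10.2% lower over all tested genes. Lists are ordered by their median change, from tubule injury and stress genes (87.5% higher) to tubule and nephron markers (71.4% lower).

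Fewer genes fell, and the largest fall was that of Egf, the growth factor made by the distal tubule. Its signals were 19031, 30645 and 27619 in the WT controls, 6087, 8325 and 13638 in the WT NTS kidneys, 24099, 18390.1 and 25809.5 in the KO controls and 1676, 1812 and 1058 in the KO NTS kidneys. Every NTS kidney lay below every control, and the KO NTS kidneys lay below the WT NTS kidneys. The averaged change was -2.72 ± 0.22 (SE), adjusted p = 9.33e-06, from -1.51 ± 0.30 in WT and -3.93 ± 0.30 in KO, and the difference between these was called (adjusted p = 0.0351). Of 7 tubule and nephron markers tested 5 fell (71.4%, against 10.2% over all tested genes) and none rose. Their median was -0.78, and 5 also fell under median centring. The gluconeogenic enzyme Fbp1, the growth hormone receptor Ghr and the prolactin receptor Prlr changed by -0.78, -1.06 and -1.44 on average. Fbp1 changed by 0.08 ± 0.27 in WT and -1.65 ± 0.27 in KO, so its averaged call rested on the KO kidneys. Summed over 5 defining tubule markers on the panel the signal was 53927 to 88745 in controls and 13362 to 63256 after serum. Egf and Fbp1 were present in all 12 kidneys, at no less than 1058 and 8443.

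Metabolic genes fell in 17 of 36 tested (47.2%, against 10.2% over all tested genes) and rose in 4 (11.1%, against 36.8%), with a median of -0.27. Through NTS kidneys alone 1 of the 36 passed the filter. Under median centring 24 fell and 2 rose, but under positive control scaling 6 fell and 4 rose. Pdk1, the kinase that holds pyruvate dehydrogenase inactive, had signals of 1371, 1496 and 1561 in the WT controls, 757, 651 and 968 in the WT NTS kidneys, 1225, 1172 and 1402 in the KO controls and 669.6, 898 and 776 in the KO NTS kidneys. The NTS kidneys lay below all controls, and the change was -0.91 ± 0.17 in WT and -0.70 ± 0.17 in KO. Mtor, the kinase of the nutrient-sensing mTOR complexes, had signals of 2276, 2130.4 and 3179 in the WT controls, 972, 1605 and 1222 in the WT NTS kidneys, 1886, 1572 and 1927 in the KO controls and 848, 1176 and 774 in the KO NTS kidneys. It was called in each genotype, and WT NTS 2 lay above the lowest KO control but below all WT controls. The glycolytic enzymes Aldoc and Pfkm changed by -1.72 and -0.84 on average. Not all glycolytic genes fell: Hk2 was called higher and Ldha was not called. Aldoc had signals of 755, 256 and 393 in the WT controls, 87.3, 79.2 and 137 in the WT NTS kidneys, 239.8, 267 and 188 in the KO controls and 100.3, 95 and 76.7 in the KO NTS kidneys, with no overlap between NTS and control kidneys. The transferrin receptor Tfrc changed by -1.18 ± 0.15 (SE), adjusted p = 0.000124.

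Of 29 Wnt, Notch and Hedgehog genes 6 fell (20.7%, against 10.2% over all tested genes) and 3 rose (10.3%, against 36.8%). Their median was -0.10, 3 of the 29 passed the filter only through NTS kidneys, and under median centring 21 fell and 1 rose. Gas1, a Hedgehog co-receptor, was called in each genotype, with signals of 1253 to 1687 in the controls and 718 to 1236 after serum and changes of -0.63 ± 0.16 in WT and -0.74 ± 0.16 in KO. Under the 5 scalings Gas1 and Mtor were called in each genotype in 2 and Pdk1 in 3. The Wnt ligands Wnt5b and Wnt11 and the Wnt receptor Ror2 changed by -0.75, -1.09 and -0.85 on average. Under positive control scaling Wnt5b and Ror2 stood at -0.60 and -0.69 and were not called. Gli1, a target of Hedgehog signalling, was among those that rose (1.07), with 4 of 6 controls at the floor. Id4, an inhibitor of basic helix-loop-helix factors, fell by 1.47 on average, and ran from 1643 to 2852 in the controls and 510.0 to 1454 after serum.

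Endothelial and vascular genes fell in 7 of 19 tested (36.8%, against 10.2% over all tested genes) and rose in 3 (15.8%, against 36.8%). Their median was -0.27 and none was called in each genotype, and under positive control scaling 2 fell and 3 rose. Angpt2 and Angpt1, ligands of the endothelial receptor Tie2, changed by -1.24 and -0.80 on average. Kdr, a receptor for VEGF, changed by 0.04 ± 0.25 in WT and -1.30 ± 0.25 in KO, and under positive control scaling its averaged change was -0.47 and was not called. Edn1, the vasoconstrictor endothelin, rose by 1.93 on average, from 0.67 ± 0.41 in WT and 3.19 ± 0.41 in KO. Summed over 5 defining endothelial markers the signal was 4960 to 5649 in controls and 2641 to 5242 after serum, and its part in these changes was not tested.

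Few T and B lymphocyte markers passed the test. Of 21 T cell genes 2 rose (9.52%, against 36.8% over all tested genes) and none fell, with a median of 0.12. Of the 21, 9 passed the filter only through NTS kidneys, and under median centring none rose and 8 fell. Those called higher were Havcr2 (0.83), a checkpoint receptor also made by myeloid cells, and the T cell receptor chain Cd3d (0.54, adjusted p = 0.0489). Cd3d lost its call in 14 of 25 alternative settings, with 0.02 (adjusted p = 0.924) under median centring and 0.19 (adjusted p = 0.358) under quantile normalization, and Havcr2 lost its call in 3, these scalings among them. Cd3e stood at 0.35 (adjusted p = 0.133). Summed over 10 defining T cell markers the signal was 156 to 218 in controls and 169 to 269 after serum. Of 3 tested B cell genes none was called by limma, and Ms4a1, encoding CD20, stood at -0.23 (unadjusted p = 0.153). Under median centring 1 B cell gene fell and under quantile normalization 2, with Ms4a1 at -0.75 and -0.71. Of 10 natural killer and cytotoxic genes 4 rose (40% of the list, against 36.8% over all tested genes), and 4 of the 10 passed the filter only through NTS kidneys. Not called were Ncr1, Kir3dl2, Gzma, Xcl1, Ctsw and Nkg7, and under median centring 3 rose and 2 fell. Klrd1, encoding the CD94 receptor chain, had signals of 15.1, 20.2 and 15.7 in the WT controls, 38.8, 31.3 and 37.8 in the WT NTS kidneys, 17.5, 16.2 and 19.8 in the KO controls and 57, 47.5 and 40.3 in the KO NTS kidneys. Its groups did not overlap and it was called in each genotype. That call held in 2 of the 5 scalings and 9 of the 12 fits that left out 1 sample. The receptor Cd244 changed by 1.21, and its ligand Cd48, called in each genotype, by 1.51. For Cd48 that call held in 3 of the 5 scalings and 3 of the 12 fits. The cytotoxic effector Prf1 was at the floor in all 12 samples, as was the mast cell protease Cpa3. Of 4 tested mast cell genes 2 rose, Tpsab1 and Ms4a2 (50%, against 36.8% over all tested genes), and none fell. The other mast cell genes tested, Hdc and Kit, were not called by limma, with Hdc at -1.13 (adjusted p = 0.082). Of the 4 tested, 1 passed the filter only through NTS kidneys, and under median centring 1 rose and 1 fell. Summed over 4 defining mast cell markers the signal was 101 to 326 in controls and 72.6 to 210 after serum, and the ranges overlapped.

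Among genes called and separated in both genotypes with an averaged change of at least 1 in size, the 6 with the most alike WT and KO changes were Cdc20, Nlrc5, Rrm2, Comp, H2-Ab1 and Mx1. They were chosen for that likeness, so it is a description with no test. Comp, a cartilage matrix protein, was the member that fell, with signals of 38.3 to 56.5 in the controls and 12.9 to 31 after serum and changes of -1.07 ± 0.29 in WT and -0.98 ± 0.29 in KO. Of the 20 housekeeping genes, on which the deposited values were scaled, 6 were called. Gusb, Stk11ip and Ubb were higher by 0.65, 0.65 and 0.77 and Oaz1, Sdha and Tfrc changed by -0.31, -0.70 and -1.18. Under all 5 scalings Sdha and Tfrc were called, while Gusb, Stk11ip and Ubb were called in 3 and Oaz1 in 2. Oaz1 lost its call in 19 of 26 alternative settings.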

How the data were processed

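Expression of 770 genes was read in 12 kidneys, in 4 groups of 3 taken from the sample labels. Total RNA was extracted with an RNeasy kit, per the labels' protocols. Each group had 3 mice according to the series' design text, and a replicate was read as 1 animal. The deposited values are a normalized signal per gene, and per the file headers the rows are endogenous genes, housekeeping genes, 8 negative and 6 positive controls. The instrument and software are not given in the sources used here. In the values, genes of a sample shared a floor equal to the geometric mean of its negative controls, and the housekeeping genes had a geometric mean of 380.1 in 11 samples and 384.2 in KO control 3. The deposited percent of samples above a threshold that the authors set was not used. The series' value table held the same signals for all 770 genes.

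The 677 genes that reached a signal of 20 in 3 or more samples were tested on log2(signal + 1) with limma 3.58.1 in R 4.3.3, with 1 mean per group and a variance trend. A fold on this scale understates the change of genes of low signal. Contrasts were the NTS minus control change averaged over genotypes, the change within each genotype and the difference between these. P-values were adjusted by Benjamini-Hochberg over all tested genes, with a threshold of 0.05. The Spp1 share was tested by exact permutation. The scripts were tested on simulated data. Of the 770 accessions 748 matched RefSeq, and 6 symbols differed, for which the file's name was kept. Of the tested genes 69 passed the filter only through NTS samples, and 19 lay at the floor in a whole group. The number of mice limits the precision.

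Named genes were the 12 highest and 12 lowest averaged changes among genes called and separated in each genotype, the 6 most alike in both, the 4 members of each of 26 lists with the smallest p, and the housekeeping genes called. Other genes called in each genotype were named after their values were seen, as were the macrophage markers that fell or were not called. The same holds for Hk2, Ldha and the natural killer and cytotoxic genes not called. The members and lists were chosen with earlier results of these data known. The alternatives tried are given in the closing section. A few results are not reported here.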

Additional observations from a re-analysis of the deposited data

Results flagged for a closer look

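Among the genes named with values, 20 changed by different amounts in the 2 genotypes by limma's test of the difference, with adjusted p from 0.0351 to 0.0459. The value given for each is the KO change minus the WT change on the log2 scale. The KO value was above the WT value for Mmp7 (4.01), Cxcl1 (3.11), Lif (2.72), Ccl20 (2.68), Edn1 (2.52), Cxcl5 (2.42), Itgam (2.26), Spp1 (2.26), Il34 (2.16), Tlr2 (2.08), Slc11a1 (1.91), Tmem173 (1.82), Birc3 (1.47), Tnfaip3 (1.36), Fcgr3 (1.33) and Trp53 (1.14). It was below for Egf (-2.42), Fbp1 (-1.73), Kdr (-1.34) and Angpt1 (-1.02). For Fbp1 and Kdr the WT change was near 0, at 0.08 and 0.04, so their averaged change does not stand for both genotypes. The number of genes that this test called changed with the samples kept. In all 12 samples it called 70 genes, and 194 had an unadjusted p under 0.05. It called 207 without WT NTS 1. None was called without WT NTS 2, WT NTS 3, KO NTS 1, KO NTS 3, WT control 1, WT control 3 or any 1 of the KO controls. In those fits 154 to 183 genes had an unadjusted p under 0.05, and the cause of the lost calls was not tested.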

How the results depend on the processing

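Of 26 alternatives, 12 left out 1 sample. In these 12 the averaged count of 318 ran from 272 to 340 and the count called in each genotype (30) from 7 to 43. The count of separated genes (103) ran from 102 to 166 and the Spp1 difference from 26.4 to 33.5 percentage points. The count of unequal changes (70) ran from 0 by limma, with 154 to 183 genes at an unadjusted p under 0.05, to 207. In other settings the counts went further. Averaged calls numbered 401 under median centring and 240 with a signal of at least 50 in 6 samples. Separated genes numbered 80 under positive control scaling and 79 with that signal filter. Median centring gave 55 genes called in each genotype, 159 separated and 20 unequal changes. Unequal changes numbered 46 under quantile normalization, 9 under positive control scaling, 41 with a signal of at least 50 in 6 samples, where fewer genes were tested, and 44 without the variance trend. A 2-fold minimum left 137 averaged calls and 64 separated genes. The cause was not tested for the scaling and trend settings. Cd3e, not called at 0.35, and Fcgr2b, not called at 0.18, changed to -0.17 and -0.34 under median centring (adjusted p = 0.301 and 0.24). Under common reference gene scaling Cd3e was called, at 0.51 (adjusted p = 0.0391), and Ms4a1 was called lower under median centring and quantile normalization. Of 96 named genes followed through these settings, 67 kept their direction and their side of the threshold in every setting and 29 did not. Spp1 changed by 0.00 under quantile normalization, which gives the highest gene of every sample the same value. Same-numbered samples of different groups correlated at -0.298 to 0.395 in their deviations, with 3 of 18 pairs over 0.1, so the numbers share no known pairing; the replicate block gave 297 averaged calls, 22 in each genotype, 102 separated and 72 unequal. DESeq2 and edgeR were not run, since values at the floor are not whole counts. Signals near the floor limit the folds of weakly expressed genes.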
